A study of Mus musculus with 3 samples.

Results

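This account covers 10 listed genes of the interleukin 6 (IL-6) and interleukin 12 (IL-12) families, with 2 of their receptors, in a mouse macrophage line. They were chosen by name: Il6, Lif, Osm, Il27, Ebi3, Il12a, Il12b, Il23a, Il6st and Il6ra. Rows with these names were found for 9 of the 10 among the 26661 genes of the deposited table; Il12a was not analysed here. At least 1 FPKM (fragments scaled to transcript length in kilobases and to library size) in at least 1 library was reached by 8 of them and by 12197 genes in all. Il12b stayed under 1 FPKM in every library.

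The cells were RAW 264.7, a line of macrophages from mouse labelled wild type, and mRNA selected on oligo(dT) was sequenced from 1 library in each of 3 groups. The control cells were kept in ordinary medium, and the second group was exposed for 6 h to 0.5 µg/ml of lipopolysaccharide (LPS), a bacterial product that toll-like receptor 4 senses. The third, the combined group, was given 10 µM harmine, a plant alkaloid that inhibits the kinase DYRK1A and monoamine oxidase A, for 0.5 h and then the same LPS exposure. Harmine was always combined with LPS, so a response to harmine by itself and a change in the response to LPS cannot be told apart. With 1 library a group there is no replicate check and no p-value, and differences between cultures are part of every value. In these bulk libraries, fewer expressing cells and less RNA per cell cannot be told apart either.

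Deposited counts summed to between 52845589 and 58169999 per library, with 4 counts taken as 1 read pair. The labels name lung as the tissue. The macrophage markers Cd68, Csf1r, Lyz2 and Spi1 were at 65.8 FPKM or more in every library. Adgre1, Ptprc, Itgam and Fcgr1, of the same list, did not exceed 27.2 FPKM. Cd14, also listed, stood at 231, 813 and 476 FPKM in the control, LPS and combined libraries. Of the 5 lung epithelium genes 3 were in the table: the surfactant gene Sftpb did not exceed 0.0130 FPKM, Ager ran from 0.600 to 0.921 FPKM, and the epithelial adhesion gene Epcam stood at 0.995, 3.07 and 4.45 FPKM in control, LPS and combined libraries, past 2-fold above control with LPS. Of the macrophage list 9 of 10 genes reached 1 FPKM, with Mrc1 below it. After LPS, 2 of the 9 were 2-fold or more above control and 1 below, beside 5.79% and 7.21% of all compared genes. After both agents 1 was above control and 4 below, beside 5.14% and 4.86%. Against LPS alone none was higher and 1, Fcgr1, was lower, beside 0.664% and 0.935%. The median log2(FPKM + 1) difference there was -0.66, and 0.10 over all compared genes. The summed FPKM of the macrophage list was 2141 in the control library, 2021 after LPS and 1586 after both agents. The T cell, B cell, dendritic cell, neutrophil and endothelial lists had no member at 1 FPKM, and the neutrophil genes were all at 0 in control. In the fibroblast list, 3 of 5 genes reached it. All 3 of them were 2-fold or more above control after LPS, as were 5.79% of all compared genes. The summed FPKM of the fibroblast list was 1.25, 9.0 and 8.90 in the control, LPS and combined libraries. The summed FPKM of the dendritic cell list was 0.210, 1.38 and 0.819, and that of the lung epithelium list 1.60, 3.74 and 5.37. The part of these markers in the values below was not tested.

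IL-6, leukemia inhibitory factor (Lif) and oncostatin M (Osm) are secreted proteins that signal through receptors sharing gp130, the product of Il6st; Il6ra encodes the subunit that binds IL-6. Members of the IL-12 family are pairs of unlike chains: p40 (Il12b) joins p35 (Il12a) in IL-12 and p19 (Il23a) in IL-23, while EBI3 joins p28 (Il27) in IL-27. Receptor binding activates JAK kinases and STAT transcription factors, and SOCS proteins limit the signal. In macrophages these cytokine genes are known targets of toll-like receptors, and many of their mRNAs are short-lived.

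After 6 h of LPS, 6 of the 8 compared genes stood 2-fold or more above control on the log2(FPKM + 1) scale, namely Il6, Lif, Osm, Il27, Ebi3 and Il23a. Over all compared genes 5.79% did so. Il6ra stood 2-fold or more below control, as did 7.21% of all compared genes, and Il6st was within 2-fold. The median log2 difference was 2.45 for the 8 genes and -0.13 for all compared genes. Il6, Lif and Il23a were under 1 FPKM in control and entered the comparison only through libraries with LPS, so their being higher follows in part from the filter.

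With harmine ahead of LPS, 4 of the 8 genes stood 2-fold or more below LPS alone: Il6, Il27, Lif and Osm. None stood 2-fold above. Of all compared genes 0.935% were 2-fold or more lower and 0.664% higher. The median log2 difference was -0.97 for the 8 genes and 0.10 for all compared genes. Among the 8, Il23a reached 1 FPKM only with LPS alone, so its being lower with harmine follows in part from the filter. The members separated widely, from Il6 at 17.4% of its level with LPS alone to Il6st at 112%. Summed over the 7 ligand and subunit genes, FPKM was 13.6, 251 and 113 in the control, LPS and combined libraries.

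**Figure D1:**
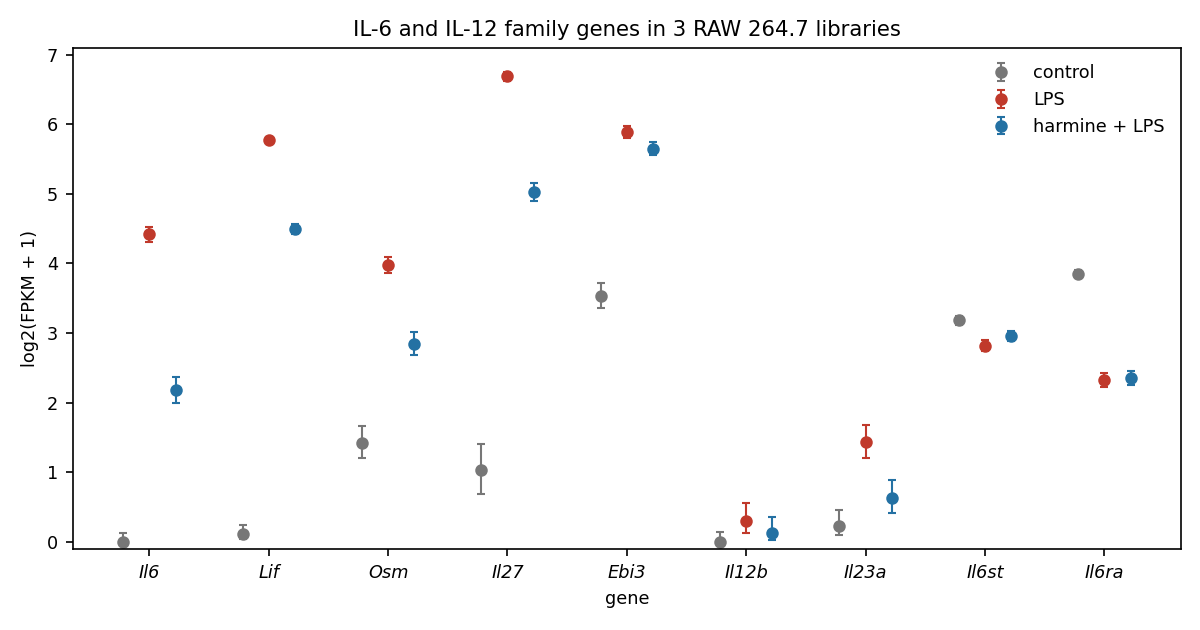
Level of each gene as log2(FPKM + 1) in the control, LPS and harmine plus LPS libraries; points are single libraries and bars are 95% exact Poisson intervals of counting error only. All 7 ligand and subunit genes show the order control, harmine plus LPS, LPS from low to high, while Il6ra is highest in control at 13.4 FPKM. The intervals of Il12b overlap between all libraries, and those of Il23a between control and harmine plus LPS.

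Il6 (ENSMUSG00000025746; chromosome 5, 30013114 to 30019981, plus strand, mm10) encodes the cytokine that drives the acute phase response. The control library held no Il6 reads, the LPS library 20.4 FPKM (2978 counts) and the combined library 3.54 FPKM (551 counts). The intervals of the 3 libraries did not overlap. Set against a floor of 3 read pairs in the control library, the ratio was 273 with LPS and 47.6 with harmine plus LPS. By the exact 95% lower limits of counting error, Il6 was at least 221-fold and at least 38.2-fold higher. With harmine it was 5.76-fold lower than with LPS alone, with a 95% exact counting interval of 4.77 to 6.92. This was the fourth lowest log2 difference of the 12197 compared genes (-2.24). The sequence upstream of Il6 is shown here because it holds matches to motifs of factors that act on this gene, with matches to NF-kB-like, C/EBP-like, AP-1 or CRE-like letters in capitals. The 250 bases end at the base before the RefSeq start and lie at chr5:30012864-30013113 on the plus strand of GRCm38.p6.
Il6: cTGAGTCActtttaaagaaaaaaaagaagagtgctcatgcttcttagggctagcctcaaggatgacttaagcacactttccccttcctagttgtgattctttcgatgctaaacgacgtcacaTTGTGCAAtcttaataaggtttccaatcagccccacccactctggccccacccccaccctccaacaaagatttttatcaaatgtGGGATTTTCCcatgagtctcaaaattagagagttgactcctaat

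Positions are counted from the start, the base before it being -1, and both strands were searched. The NF-kB-like motif (3 G, any 2 bases, 2 T, any base, 2 C) lay at -44 to -35 in Il6 and was present in 4.11% of the 32817 promoters of the RefSeq table, read over the same length. The C/EBP-like motif (TTGCNNAA), present in 9.57%, lay at -128 to -121 on the minus strand. The AP-1 motif (TGANTCA), present in 6.75%, lay at -249 to -243. A match describes letters, not a bound site.

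Lif (ENSMUSG00000034394; chromosome 11, 4257557 to 4272514) and Osm (ENSMUSG00000058755; chromosome 11, 4236420 to 4241026) are neighbours on the plus strand, 16530 bases apart. Lif, a factor known for holding mouse embryonic stem cells undifferentiated, stood at 0.0849 FPKM in control, 53.8 FPKM after LPS and 21.6 FPKM after both agents. It thus went from near the level of a few read pairs (6.25 in control) to the third place in the family with LPS. The FPKM ratio of LPS to control was 634, with a wide counting interval of 297 to 1762 because the control library held so few reads. Osm, which acts on liver, stromal and bone cells, stood at 1.69, 14.8 and 6.21 FPKM in the same order, 8.71-fold (6.67 to 11.4) higher with LPS than in control. Relative to LPS alone, the harmine library held 2.50-fold (2.35 to 2.65) less Lif and 2.38-fold (2.02 to 2.78) less Osm; these intervals overlap. The FPKM ratio of Lif to Osm was 3.65 with LPS and 3.47 with harmine plus LPS, beside 0.0501 in control.

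Other genes within 50000 bases of the pair did not show this order. Castor1, an arginine sensor of the mTORC1 pathway located 14010 bases from Osm, stood at 1.42, 0.719 and 1.37 FPKM in control, LPS and harmine plus LPS. Tbc1d10a stood at 3.70, 4.06 and 4.71 FPKM. The sequence before the RefSeq start of Lif is shown for comparison with that of Il6; its AP-1 match is in capitals, at -228 to -222, and it holds no match to the NF-kB-like or C/EBP-like letters. It lies at chr11:4257318-4257567, plus strand, GRCm38.p6.
Lif: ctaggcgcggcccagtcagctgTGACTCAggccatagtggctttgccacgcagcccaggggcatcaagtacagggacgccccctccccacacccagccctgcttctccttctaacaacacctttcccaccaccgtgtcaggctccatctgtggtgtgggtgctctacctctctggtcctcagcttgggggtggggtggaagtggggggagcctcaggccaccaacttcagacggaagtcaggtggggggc

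The subunits of IL-27 differed in how far they stood below LPS alone in the library with harmine. Il27 (ENSMUSG00000044701; chromosome 7, 126589010 to 126594941, minus strand), encoding p28, stood at 1.04 FPKM in control, 102 FPKM after LPS and 31.6 FPKM after both agents, and was the highest member with LPS alone. Its ratio of LPS to control was 98.0 (60.5 to 162), and it was 3.23-fold (2.92 to 3.57) lower with harmine than with LPS alone. Ebi3 (ENSMUSG00000003206; chromosome 17, 55952640 to 55957022, plus strand), encoding the receptor-like partner chain, stood at 10.6, 58.2 and 49.1 FPKM in the same order. Ebi3 was already expressed in control, was 5.48-fold (4.71 to 6.41) higher with LPS, and was 1.19-fold (1.08 to 1.30) lower with harmine. The intervals of Il27 and Ebi3 for harmine plus LPS against LPS do not overlap. The FPKM ratio of Il27 to Ebi3 was 0.0981 in control, 1.75 after LPS and 0.643 after both agents, so that Ebi3 was the more abundant of the pair in control and with harmine, and Il27 with LPS alone.

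Both loci have a partner on the opposite strand. The libraries were made with a dUTP protocol that marks strand, but the sources used here do not state whether the counting used it. Gm16712 overlaps Ebi3 over 2252 bases and stood at 2.54, 14.6 and 12.4 FPKM, in the same order of libraries as Ebi3, so the reads of that pair may not be separate. Apobr, a lipoprotein receptor gene, overlaps Il27 over 103 bases and stood at 27.6, 69.3 and 54.6 FPKM, in the same order of libraries as Il27. Some reads of that pair may not be separate either, which matters most in control, where Il27 stood at 1.04 FPKM. The sequence before the RefSeq start of Ebi3 is shown because it holds an NF-kB-like match, in capitals, at -44 to -35 from that start. The start given above for Ebi3, 55952640, lies downstream of the RefSeq start, so this position depends on the start used. The part of this match in the levels of Ebi3 was not tested. The sequence lies at chr17:55952373-55952622, plus strand, GRCm38.p6.
Ebi3: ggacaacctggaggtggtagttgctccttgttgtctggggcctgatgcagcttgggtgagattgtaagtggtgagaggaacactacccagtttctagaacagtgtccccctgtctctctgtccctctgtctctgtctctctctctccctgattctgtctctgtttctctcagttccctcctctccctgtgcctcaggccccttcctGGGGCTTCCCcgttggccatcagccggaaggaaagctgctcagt

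Promoters were in the table for 6 of the 9 genes, and these 6 were searched in the same way. Only Il6 and Ebi3 of them held the NF-kB-like letters, and only Il6 and Lif the AP-1 letters. The PU.1 letters (GAGGAA) were in those of Ebi3, Il12b and Il6ra and in 23.3% of all promoters. The CRE-like letters (TGACGTNA), the STAT letters (TTCNNNGAA), the TATA letters (TATAAA) and an IRF motif (GAAA, any 2 bases, GAAA) were in none of the 6. Of all promoters they were in 2.52%, 7.01%, 12.4% and 2.97%.

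**Figure D2:**
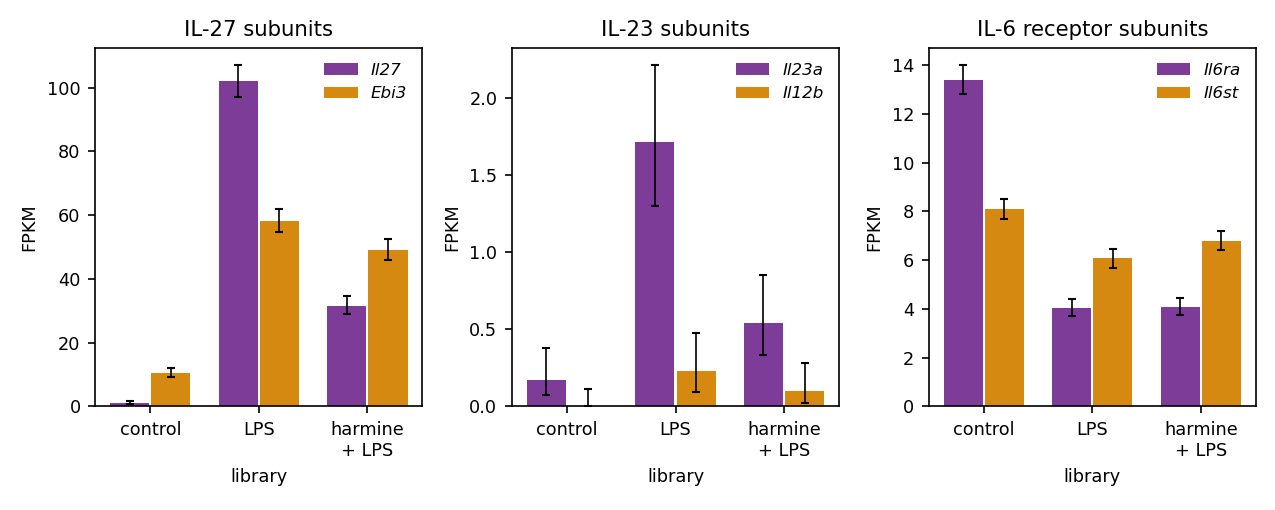
FPKM of the paired chains of IL-27, IL-23 and the IL-6 receptor in each library, with 95% exact Poisson intervals of counting error only; the vertical axes differ. Il27 exceeds Ebi3 only with LPS alone (102 and 58.2 FPKM), and Il6ra exceeds Il6st only in control (13.4 and 8.10 FPKM).

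The chains of IL-23 were scarce. Il23a (ENSMUSG00000025383; chromosome 10, 128296139 to 128298752, minus strand), encoding p19, stood at 0.173, 1.71 and 0.542 FPKM in the control, LPS and combined libraries (27, 232 and 79 counts). It was 9.87-fold (4.16 to 23.7) higher with LPS than in control. With harmine it was 3.15-fold (1.83 to 5.41) lower than with LPS alone, although its difference of -0.81 on the log2(FPKM + 1) scale did not reach 2-fold. Il12b (ENSMUSG00000004296; chromosome 11, 44400063 to 44414033, plus strand), encoding the p40 chain shared by IL-12 and IL-23, stood at 0, 0.230 and 0.0971 FPKM, from 0, 28 and 13 counts or 0, 7 and 3.25 read pairs. Set against the floor of 3 read pairs in control its ratio with LPS was 2.57, and by the exact lower limit it was at least 1.59-fold higher. The ratio of harmine plus LPS to LPS, 0.422, had an interval of 0.0673 to 1.77, so a difference in Il12b was not detectable at this depth. The FPKM ratio of Il23a to Il12b was 7.44 with LPS and 5.59 with harmine plus LPS.

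Receptor genes took another course from their ligands. Il6ra (ENSMUSG00000027947; chromosome 3, 89864059 to 89913196, minus strand) stood at 13.4 FPKM in control, 4.03 FPKM after LPS and 4.10 FPKM after both agents. Both LPS libraries lay far below control and their intervals overlapped. The gene was 3.33-fold (3.02 to 3.67) lower with LPS than in control, and the ratio of harmine plus LPS to LPS was 1.02 (0.901 to 1.15), or between -0.08 and 0.02 log2 over the scalings tried, which turns its direction. Gm42809 overlaps Il6ra over 281 bases on the opposite strand and did not exceed 0.0567 FPKM. Il6st (ENSMUSG00000021756; chromosome 13, 112464070 to 112510086, plus strand), encoding gp130, stood at 8.10, 6.07 and 6.80 FPKM. With LPS the gene was below control by a ratio of 1.34 (1.23 to 1.45). Its ratio of harmine plus LPS to LPS was 1.12 (1.03 to 1.22), against a median difference of all genes of 0.10 log2 in the same direction. The FPKM ratio of Il6ra to Il6st was 1.66, 0.665 and 0.603 in the control, LPS and combined libraries.

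**Figure D3:**
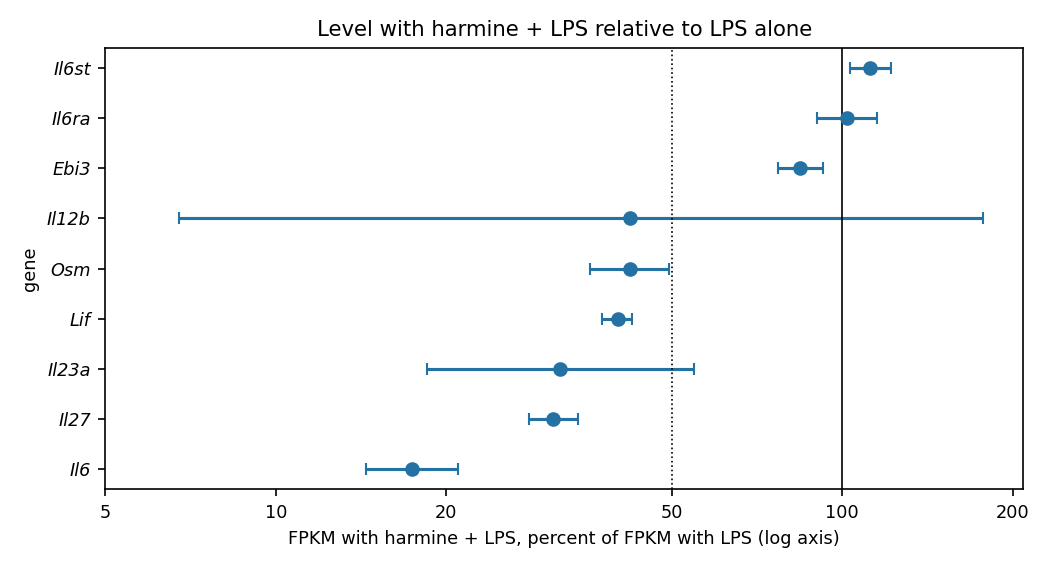
FPKM with harmine plus LPS as a percent of FPKM with LPS alone (log axis), with 95% exact binomial intervals of counting error only; the solid line marks equal levels and the dotted line 50%. Il6 lies lowest at 17.4%, Lif and Osm lie close together at 40.1% and 42.1%, and Ebi3 and both receptor genes lie between 84.3% and 112%.

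Compared per transcript length within a library, the order of the members differed between libraries. In control the order from the highest was Il6ra, Ebi3, Il6st, Osm and Il27, of which Osm and Il27 overlapped in counting error, followed by Il23a, Lif, Il6 and Il12b, each overlapping the next. With LPS it was Il27, Ebi3, Lif, Il6, Osm, Il6st, Il6ra, Il23a and Il12b, and among these neighbours only Ebi3 and Lif overlapped. With harmine plus LPS it was Ebi3, Il27, Lif, Il6st, Osm, Il6ra, Il6, Il23a and Il12b; Il6st and Osm overlapped, as did Il6ra and Il6. Il6 thus moved from the fourth to the seventh place.

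**Figure D4:**
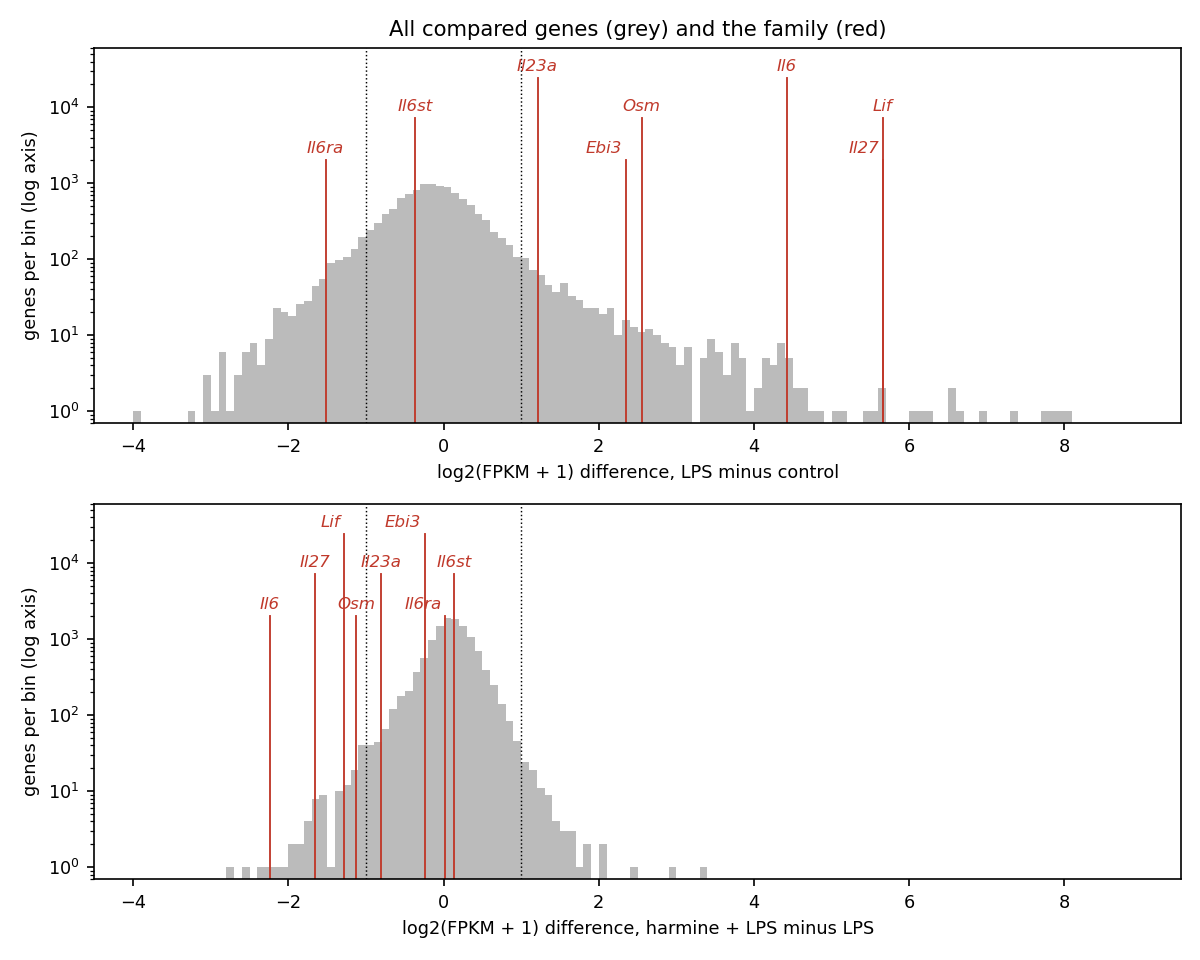
Number of compared genes by log2(FPKM + 1) difference (bins of 0.1, log vertical axis) for LPS minus control and harmine plus LPS minus LPS; red lines mark the 8 compared family genes and dotted lines 2-fold. Lif and Il27 both lie at 5.66 in the upper panel, an order that turns with the pseudocount, and Il6 lies at -2.24 in the lower one. Both panels use the LPS library.

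Among genes 2-fold or more higher with LPS than in control, the part of the rise in FPKM that was absent with harmine plus LPS was 82.6% for Il6 (counting interval 79.0 to 85.6), 76.0% for Il23a (50.3 to 90.7) and 69.8% for Il27 (66.4 to 72.8). It was 65.5% for Osm (57.1 to 72.4), 60.0% for Lif (57.5 to 62.4) and 19.1% for Ebi3 (9.37 to 28.1). Over all 706 such genes the median was 24.4%, with quartiles of -1.38% and 52.0%. A larger share than that of Il6 was absent for 29 of the 706. Because the LPS library enters both the rise and the loss, these shares are a description. Il23a also passed the filter only through that library.

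Set against control, the harmine plus LPS library still held more of most ligand and subunit genes. Of the 8 compared genes, 5 were 2-fold or more higher (Il6, Lif, Osm, Il27 and Ebi3), as were 5.14% of all genes. Il6 and Lif entered only through libraries with LPS, so their part in this count follows in part from the filter. Il6ra was lower, as were 4.86%. The ratio to control was 254 (119 to 706) for Lif, 30.3 (18.6 to 50.5) for Il27, 4.62 (3.97 to 5.41) for Ebi3 and 3.66 (2.76 to 4.91) for Osm. Il23a was 3.13-fold (1.20 to 8.29) above control, and its difference of 0.39 log2 did not reach 2-fold.

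The 3' untranslated regions were examined for AU-rich elements, sequences around the pentamer ATTTA through which proteins such as tristetraprolin (Zfp36) destabilise cytokine mRNAs. This property was examined after the expression values had been seen. The longer form TATTTAT occurred in the regions of Lif (5 times), Il23a (5), Il27 (4), Osm (3), Il6 (1) and Il12b (1), and not in those of Ebi3, Il6st and Il6ra; it occurred in 27.6% of 9973 compared genes. Il27 held 5 ATTTA in 285 bases and Il6 held 6 in 427 bases. Of compared genes whose region was 0.8 to 1.25 times as long, 0.233% held as many as Il27 or more, and 0.482% as many as Il6 or more. Ebi3 held 1 in 245 bases, and 33.5% of genes of similar length held as many or more. The share was 36.2% for Lif, 4.40% for Osm, 2.05% for Il12b, 1.41% for Il23a, 57.6% for Il6st and 89.9% for Il6ra, so the share for Lif was close to that for Ebi3. Counted by TATTTAT, as many or more were held by 0.233% of such genes for Il27, 0.235% for Il23a, 1.09% for Lif, 1.80% for Osm, 11.9% for Il6 and 21.5% for Il12b. Density was 17.5 per kilobase for Il27, 14.1 for Il6, 9.13 for Il23a, 7.53 for Il12b, 5.90 for Osm, 4.08 for Ebi3, 2.2 for Lif, 1.60 for Il6st and 0.544 for Il6ra, beside a median of 1.28.

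The 30 bases richest in ATTTA are shown for 3 of the members with TATTTAT in the region, from GENCODE M21 on GRCm38. The windows run 5' to 3' on the transcript strand, with ATTTA in capitals. Picked by the number of ATTTA, they need not hold TATTTAT, and of these 3 only that of Il27 does. They lie at chr5:30019677-30019706 for Il6, chr7:126589090-126589119 for Il27 and chr11:4272414-4272443 for Lif. The windows of Osm, Il23a and Il12b, not shown, held 2, 2 and 4 ATTTA.
Il6: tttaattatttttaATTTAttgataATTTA
Il27: ccagatATTTAtttcttggatATTTATTTA
Lif: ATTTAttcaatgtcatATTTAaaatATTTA

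Of 7 compared genes whose products act on cytokine mRNA stability, 2 were 2-fold or more higher with LPS than in control and 1 lower, beside 5.79% and 7.21% of all compared genes. None of the 7 passed 2-fold between harmine plus LPS and LPS, near the all-gene shares of 0.664% and 0.935%. Zc3h12a, encoding the nuclease Regnase-1 that cleaves Il6 mRNA, stood at 5.35, 55.7 and 35.3 FPKM in the control, LPS and combined libraries. Zfp36 stood at 18.0, 148 and 125 FPKM. Its relative Zfp36l2 went the other way, at 33.8, 6.43 and 9.15 FPKM. Rc3h1, encoding Roquin-1, stood at 5.05, 9.92 and 10.6 FPKM.

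Transcription factors known to act on Il6 or Il12b stood 2-fold or more higher with LPS in 9 of 15 compared cases and lower in none, beside 5.79% and 7.21% of all compared genes. Their median was 1.54 log2. None of the 15 passed 2-fold between harmine plus LPS and LPS, near the all-gene shares of 0.664% higher and 0.935% lower, and the median was 0.01 log2 beside 0.10 for all genes. Nfkbiz, whose product IkB-zeta is needed for Il6 induction in mouse macrophages, stood at 1.84, 78.9 and 56.6 FPKM. Nfkb2 stood at 11.7, 77.6 and 78.1 FPKM and Junb at 50.7, 317 and 426 FPKM. Fosl1, an AP-1 subunit, stood at 0.882, 19.1 and 11 FPKM.

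Receptors for the other members of these families were scarce. All 6 further receptors of the IL-6 family (Lifr, Osmr, Il11ra1, Cntfr, Il27ra, Il31ra) and all 3 of the IL-12 family (Il12rb1, Il12rb2, Il23r) were under 1 FPKM in every library. Lifr stood at 0.174, 0.0467 and 0.0963 FPKM. Osmr had no counts in control and stood at 0.0158 and 0.0358 FPKM in the libraries with LPS. Of the other IL-6 family ligands, 4 of 6 listed were in the table and Cntf alone reached 1 FPKM, at 0.682, 1.12 and 2.34 FPKM. The sheddases that can release soluble IL-6 receptor did not pass 2-fold, with Adam17 at 26.2, 44.3 and 33.2 FPKM and Adam10 at 29.5, 15.7 and 18.4 FPKM.

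Downstream of the receptors, Jak2 and Stat3 were 2-fold or more higher with LPS than in control and Tyk2 was not; none of these passed 2-fold between harmine plus LPS and LPS. Stat3, the main transducer of gp130 signals, stood at 4.66, 11.4 and 6.89 FPKM, with a difference of -0.65 log2 between the libraries with and without harmine. The kinase gene Jak2 stood at 4.12, 15.5 and 12.7 FPKM and Tyk2, another kinase of the family, at 11.1, 13.5 and 19.6 FPKM. Of 8 listed regulators of JAK and STAT signals, from the SOCS, PIAS and phosphatase families, 7 were compared, Socs1 staying under 1 FPKM. Of these 7, 2 were 2-fold or more higher with LPS, beside 5.79% of all compared genes. Socs3, the inhibitor that binds gp130, stood at 5.66, 144 and 129 FPKM, and Cish at 0.0231, 3.48 and 1.48 FPKM. The phosphatase gene Ptpn6 stood at 186, 106 and 79.3 FPKM and Pias3 at 5.46, 3.14 and 2.89 FPKM.

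Of 12 compared genes known to respond to STAT3, 5 passed 2-fold upward with LPS and 0 downward, beside 5.79% and 7.21% of all compared genes. None of the 12 passed 2-fold between harmine plus LPS and LPS, where 0.664% of all genes were higher and 0.935% lower, and the median was -0.10 log2 beside 0.10 for all genes. Besides Socs3 and Junb, which are counted in other lists too, these included Myc at 0.905, 27.0 and 52.4 FPKM and the kinase gene Pim1 at 4.14, 66.9 and 81.5 FPKM. These genes respond to toll-like receptors as well.

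Among 6983 genes with at least 5 FPKM in 1 library, those closest to Il6 in the pair of log2(FPKM + 1) differences were Marcksl1 at a distance of 0.54, C5ar1 (0.82), Hcar2 (0.97), Phlda1 (1.02) and Hdc (1.07). Marcksl1, a relative of the actin-binding protein MARCKS, stood at 21.3, 465 and 143 FPKM and C5ar1, the receptor of complement fragment C5a, at 1.73, 33.7 and 4.87 FPKM. The distance rests on 3 libraries. For Il12b the closest were St3gal6 (0.01), Eml2 (0.01), Cdipt (0.02), Ppp2r3c (0.02) and Epb41l4aos (0.02), all of them expressed in control, while the small differences of Il12b on this scale reflect 7 read pairs at most.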

How the data were processed

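RNA-seq libraries of RAW 264.7 cells, 1 per group, were compared. Per the file headers, the deposited table holds an FPKM value and an estimated count for each gene and library; the counts carry no normalization. Per the submitters' processing notes, the tools were StringTie 2.1.6, HISAT2 2.2.1, cutadapt 1.9, edgeR and DESeq2, with build mm10; their roles and filters are not stated there. Since the deposited FPKM scales by library, a change in total RNA per cell would not be seen.

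Each group being 1 library, no model was fitted. Genes at 1 FPKM or more in any library were compared as log2(FPKM + 1) differences, which understate those of low genes, with a 2-fold threshold; folds are plain FPKM ratios. More genes had a count of exactly 4 (994 to 1096 per library) than of 3 (566 to 619), so 4 counts were taken as 1 read pair. Intervals (95%, exact binomial for ratios, exact Poisson for levels, scipy 1.17.1) cover counting error only, and those of the share of a rise that was absent treat the control level as fixed. The floor against a count of 0 was 3 read pairs (12 counts) per library. The comparison was also run on simulated counts with known changes, drawn with counting error only around the control library. Differences between cultures were not simulated, and no changes were planted in low genes.

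The members, lists and motifs were chosen with earlier results of these data known. Named genes were the members, up to 4 genes per pathway list with the greatest absolute difference, and the 5 genes closest to Il6 and to Il12b; other receptors, neighbours and markers were named after their values were seen. Of 67 pathway and 47 marker list entries, 65 and 44 were in the table. Promoters were the 250 bases before the RefSeq start (GRCm38.p6), and untranslated regions came from 1 GENCODE M21 coding transcript per gene, the best-ranked principal one and then the longest region. Protein features were not computed. The count over the JAK and STAT list is not reported here. Alternatives were pseudocounts of 0.1 and 5 FPKM, no filter or 5 FPKM, TPM, median-of-ratios and upper-quartile scaling, and a 1.5-fold threshold.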

Additional observations from a re-analysis of the deposited data

How the results depend on the processing

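With LPS, 5 or 6 members were higher than control and 1 lower under every alternative run. Between harmine plus LPS and LPS, 3 to 5 members were lower and none higher; Osm was not called at a pseudocount of 5 FPKM (-0.82 log2), and Il23a was added at 0.1 FPKM (-1.49), with TPM and at 1.5-fold. Against control, 3 members were higher with harmine plus LPS at 5 FPKM, where Il6 (0.77 log2) and Osm (0.74) were no longer called, and 6 at 0.1 FPKM. Sizes depended on the pseudocount: of 27 log2 differences, 17 moved at 0.1 FPKM and 20 at 5 FPKM. Moves were judged by counting error about the log2(FPKM + 1) difference, not by the intervals of plain ratios given above. For LPS against control Il6 ran from 2.34 to 7.68, and Lif and Il27 were at 8.19 and 6.48 at 0.1 FPKM but 3.53 and 4.15 at 5 FPKM. No log2 difference of a called member changed sign. That of Il6ra between harmine plus LPS and LPS, not called, ran from -0.08 to 0.02 over scalings. Median-of-ratios scaling moved the median of all genes in that comparison from 0.10 to -0.00 log2. The share absent went from 19.1% to 27.6% for Ebi3, within its counting interval. For Lif it went from 60.0% to 63.4%, outside its interval.

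Counts over all genes, higher and then lower, moved more. For LPS against control they were 706 and 880, beside 1068 and 1482 at a pseudocount of 0.1 FPKM, 347 and 291 at 5 FPKM, 1327 and 1405 with TPM, and 1426 and 2356 at 1.5-fold. For harmine plus LPS against LPS they were 81 and 114, beside 350 and 226, 15 and 38, 345 and 254, and 646 and 408 in the same order of settings; a filter at 5 FPKM left 47 higher. For harmine plus LPS against control they were 627 and 593, beside 1068 and 975, 296 and 188, 1359 and 959, and 1500 and 1652. Of the calls between harmine plus LPS and LPS, 41.5% were higher, 27.6% with median-of-ratios scaling, 57.6% with TPM, 60.8% at 0.1 FPKM and 28.3% at 5 FPKM. TPM enlarges all values beside a fixed pseudocount and filter; the cause of the other shifts was not tested. With 1 library a group, no replicate could be left out. Depth limits Il12b, Il23a, and Il6 and Lif in control.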
